A study of Pomatostomus ruficeps with 28 samples.

Results

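Blood methylation was compared between chestnut-crowned babbler (Pomatostomus ruficeps) nestlings that had hatched heavy and nestlings that had hatched light. A mass at hatching was recorded for 22 of the 28 nestlings in the deposited table, and these 22 were divided at 3.0 g into 12 heavy hatchlings (3.0 g or more) and 10 light hatchlings (below 3.0 g). The 6 nestlings without a hatching mass, 4 raised by groups and 2 raised by pairs, entered no comparison. The deposited column of hatching masses is empty for more nestlings than the study's methods count as lacking one. This cooperatively breeding passerine of arid Australia raises its young either as a pair or as a group in which helpers also feed the brood. The study asked whether the number of carers at the nest is associated with DNA methylation, and it did not set out to test hatching mass.

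All nestlings compared were wild birds of 1 population, whose eggs had been finished in an incubator and whose chicks had been weighed within an hour of hatching and then placed in their own or in an unrelated nest. The heavy hatchlings comprised 9 birds reared by groups and 3 reared by pairs and were bled at 14 to 20 days of age. The light hatchlings comprised 6 birds reared by groups and 4 reared by pairs and were bled at 14 to 17 days. Heavy and light are therefore classes of untreated birds, set by a mass that no one manipulated. The tissue is labelled blood, and it was not checked against cell type markers because the positions in the table carry no gene names.

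Methylation in vertebrates is found mainly on cytosines that are followed by guanine (CpG sites), where it is copied at cell division and can accompany silencing of nearby promoters. The red blood cells of birds keep their nucleus, so a small blood sample yields mostly erythrocyte DNA. Hatching mass in birds largely follows egg size and thus what the mother put into the egg, and it often predicts early growth. In enzymatic methyl sequencing an unmethylated cytosine is read as thymine, so a bird that carries thymine in place of cytosine in its own DNA is also read as unmethylated at that site. Genotypes were not analysed here.

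Heavy hatchlings weighed 3.15 ± 0.204 g (SD, n = 12) and light hatchlings 2.76 ± 0.195 g (SD, n = 10). Since mass defined the classes, this difference is a description and was not tested. The heavy masses ran from 3 to 3.62 g with a median of 3.02 g, and the light masses from 2.28 to 2.9 g with a median of 2.8 g. Just inside the limit were 6 nestlings of exactly 3.0 g, and just outside it were 4 nestlings of 2.9 g, so nearly as many nestlings lay next to the limit as away from it. The heaviest hatchling was nestling 62642 (3.62 g), followed by 79685 (3.4 g), 79676 (3.3 g), 62605 (3.22 g) and 62534 (3.2 g). The lightest was nestling 62525 (2.28 g), followed by 79578 (2.6 g), 79513 (2.7 g) and 62645 (2.77 g). Numbers of nestlings are ring numbers.

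The 2 classes did not differ detectably in rearing conditions. Of the heavy hatchlings 9 of 12 were raised by groups, against 6 of 10 light hatchlings (Fisher's exact test, two-sided, p = 0.652). Age at sampling was 15.9 ± 1.88 days in heavy and 15.5 ± 0.850 days in light hatchlings (SD, n = 12 and 10, two-sided permutation test, p = 0.588). Days since rain were 35.5 ± 22.6 for heavy and 37.7 ± 21.9 for light hatchlings (SD, two-sided permutation test, p = 0.822). The heavy hatchlings came from 9 natal groups and the light ones from 8, out of 14 natal group codes in all. Only 3 codes held nestlings of both classes, with 8 nestlings between them.

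The lead in mass at hatching was not seen at sampling. The table holds a growth rate without a unit, and its value fits the base 10 logarithm of mass at sampling over mass at hatching, divided by age. Read in that way it gave a mass at sampling for each nestling, and 21 of the 22 masses fell within 0.01 g of a multiple of 0.5 g. Heavy hatchlings weighed 40.8 ± 3.93 g at sampling (34.0 to 47.5 g, n = 12) and light hatchlings 40.5 ± 2.53 g (38 to 45.5 g, n = 10). The difference was 0.287 g, with a 95% interval of -2.62 to 3.195 g (unequal variances), and it lay within the spread of birds in either class (permutation test, two-sided, p = 0.833). The heaviest hatchling, 62642, was also the heaviest bird at sampling (47.5 g), whereas 79685, second heaviest at hatching, weighed 36 g. Birds were not all of 1 age when weighed, and after age was taken into account the difference was -0.262 g (p = 0.823, permutation test).

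**Figure D1:**
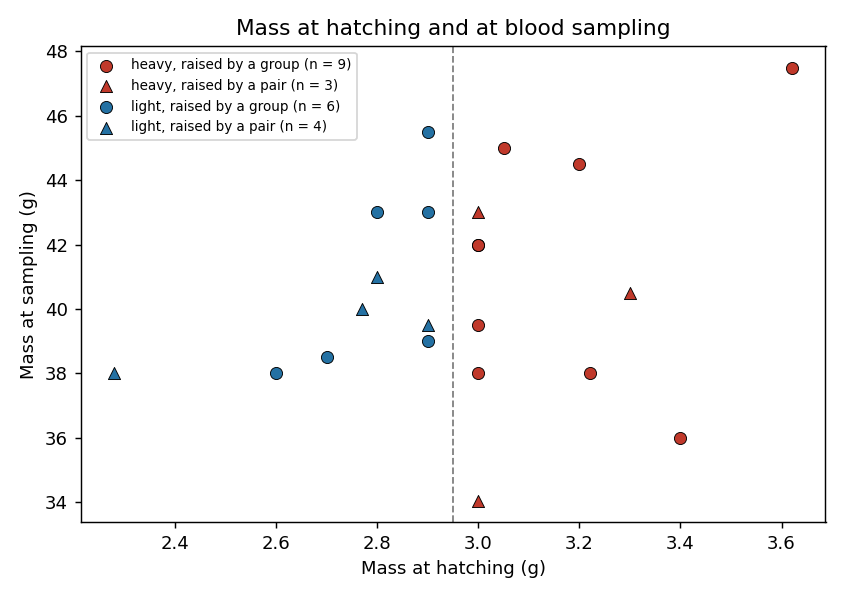
Mass at hatching (g, horizontal axis) against mass at sampling (g, vertical axis) for the 22 nestlings, with heavy hatchlings in red, light ones in blue, circles for birds raised by groups and triangles for birds raised by pairs. The dashed line separates the classes, and the mean masses at sampling, 40.8 g in heavy and 40.5 g in light hatchlings, lie within the spread of either class. At 3.0 g and 42 g 2 points coincide.

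Daily gain in mass was 2.38 ± 0.205 g in heavy and 2.44 ± 0.164 g in light hatchlings (SD, n = 12 and 10), again within the spread of birds in either class (permutation test, two-sided, p = 0.434). The deposited growth rate averaged 0.0705 in heavy and 0.0755 in light hatchlings, but it contains the hatching mass in its denominator and was therefore not tested. Daily gain also contains the hatching mass, which is subtracted in it, so its test is not independent of how the classes were set. Across all 22 nestlings hatching mass and mass at sampling were weakly related (Pearson's r = 0.287, permutation p = 0.194, adjusted p = 0.242, and Spearman's rho = 0.144, permutation p = 0.523, adjusted p = 0.523, over 5 relations computed). Without the lightest and the heaviest hatchling, 62525 and 62642, r was -0.0621 (permutation p = 0.793), so the relation rested on those 2 birds.

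Libraries of the 2 classes were of similar depth. Total reads behind the values, worked out from the deposited percentages and coverage, ran from 7520205 to 17560076 in heavy and from 5266843 to 19539803 in light hatchlings. A value rested on 9.56 ± 1.53 reads on average in heavy and 9.997 ± 2.098 reads in light hatchlings (SD, two-sided permutation test, p = 0.574). The deposited coverage averaged 15.4 ± 2.05 in heavy and 16.8 ± 3.23 in light hatchlings (two-sided permutation test, p = 0.249). Values were present at 629681 to 1383783 sites in heavy and at 708060 to 1496607 sites in light hatchlings (two-sided permutation test, p = 0.780). The fewest sites were in heavy nestling 79687, whose mean coverage and mean reads were the same (12.7), unlike in the other birds. It was pooled with them in these comparisons. Within the light class the 4 lightest birds had the deepest libraries, at 10.6 to 13.6 reads per value, against 7.44 to 9.34 in the other light birds. Over all 22 nestlings hatching mass and mean reads had r = -0.436 (permutation p = 0.0445, adjusted p = 0.0742) and rho = -0.329 (permutation p = 0.136, adjusted p = 0.227), and without birds 62525 and 62642 r was -0.365 (permutation p = 0.114).

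Mean methylation of the 2 classes over the sites shared by all birds differed by less than the spread between nestlings. Over the 15593 CpG sites with a value in all 22 nestlings, mean methylation was 78.0 ± 1.12% in heavy hatchlings (SD, n = 12) and 77.8 ± 1.06% in light hatchlings (SD, n = 10). The difference of 0.203 points had a 95% interval of -0.767 to 1.17 points (two-sided permutation test, p = 0.674). Heavy values ran from 74.9 through a median of 78.1 to 79.2%, and light values from 75.9 through a median of 77.8 to 79.1%, so the 2 ranges overlapped almost completely. The lowest value of all belonged to heavy nestling 79676 (74.9%) and the next lowest to light nestling 62525 (75.9%), both raised by pairs. The highest were heavy nestling 61511 (79.2%) and light nestling 79594 (79.1%), both raised by groups. The shared sites are a small part of the 1564780 deposited sites. Over each nestling's own sites the means were higher, 85.4 ± 1.87% in heavy and 85.3 ± 2.17% in light hatchlings (SD, two-sided permutation test, p = 0.935).

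**Figure D2:**
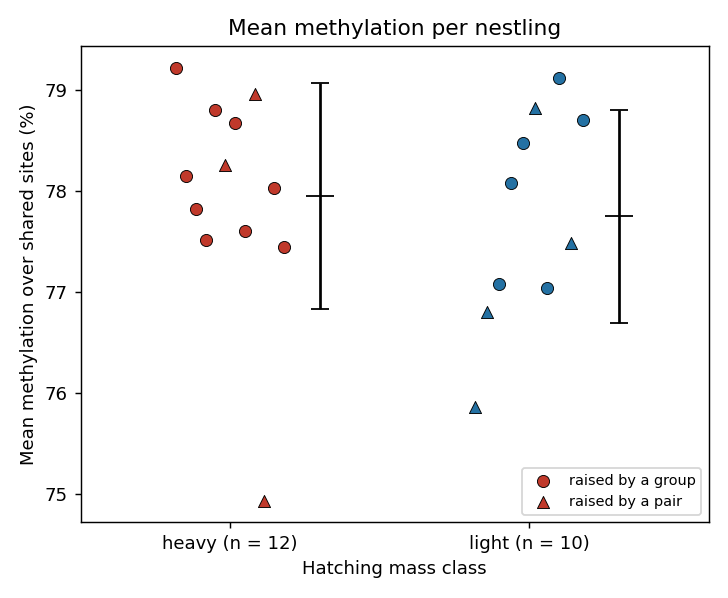
Mean methylation (%, vertical axis, not starting at 0) over 15593 CpG sites with a value in every nestling, 1 point per nestling, for heavy (n = 12) and light (n = 10) hatchlings, with circles for birds raised by groups and triangles for birds raised by pairs. Bars give the mean and SD of each class, 78.0 ± 1.12% in heavy and 77.8 ± 1.06% in light hatchlings, and heavy nestling 79676 lies apart from the other heavy birds at 74.9%.

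The classes were also compared at sites of low, intermediate and high methylation. At the 123 shared sites whose mean was below 20%, heavy hatchlings averaged 15.3 ± 1.28% and light hatchlings 14.7 ± 1.46%, a difference of 0.640 points (95% interval -0.602 to 1.88). At the 6482 sites between 20 and 80% the averages were 64.8 ± 1.20% in heavy and 64.4 ± 0.976% in light hatchlings, a difference of 0.433 points (-0.534 to 1.40). At the 8988 sites above 80% they were 88.3 ± 1.11% in heavy and 88.2 ± 1.18% in light hatchlings, a difference of 0.0316 points (-0.999 to 1.06). Adjusted over these 3 two-sided permutation tests, p was 0.564, 0.564 and 0.950 (n = 12 and 10 throughout). With limits of 10 and 90% in their place, the 17 sites below 10% averaged 9.01 ± 2.50% in heavy and 7.16 ± 1.55% in light hatchlings, a difference of 1.84 points whose 95% interval of 0.0163 to 3.67 left out 0, although the two-sided permutation test did not pass (p = 0.0572, adjusted p = 0.172 over 3).

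Hatching mass was also used as measured, without classes. Mean methylation and hatching mass had r = 0.121 (permutation p = 0.586, adjusted p = 0.586) and rho = 0.145 (permutation p = 0.518, adjusted p = 0.523) over the 22 nestlings. Without birds 62525 and 62642 r was -0.104 (permutation p = 0.660). The weak positive relation thus depended on these birds.

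The comparison was repeated within each carer class. Among nestlings raised by groups mean methylation was 78.1 ± 0.630% in the 9 heavy and 78.1 ± 0.860% in the 6 light hatchlings (difference 0.0561 points, exact permutation test, two-sided, p = 0.883). Among nestlings raised by pairs it was 77.4 ± 2.15% in the 3 heavy and 77.2 ± 1.25% in the 4 light hatchlings (difference 0.140 points, exact permutation test, two-sided, p = 0.971). The difference between these differences, groups minus pairs, was -0.0836 points (exact permutation test over 46200 arrangements, two-sided, p = 0.936).

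Within natal groups the direction was the other way. In natal group OFQ the heavy nestling 79676 had 74.9% and the light nestling 79677 had 77.5%, a difference of -2.55 points. In OFS the 3 heavy nestlings averaged 77.7% and light nestling 79684 had 78.7%, a difference of -1.03 points. In SFO the heavy nestling 79561 had 78.3% and the light nestling 79563 had 78.8%, a difference of -0.568 points. Heavy birds were thus lower in 3 of 3 natal groups. With the natal group as a block the difference was -1.34 points (exact permutation test of the classes within natal groups, two-sided, p = 0.0625), and since the 8 birds allow 16 arrangements this is the smallest p they can give. This fit was added after the data had been seen. Mean reads at the shared sites were also higher in heavy birds in all 3, with 18.7, 17.6 and 17.5 mean reads at the shared sites for heavy nestlings of OFQ, OFS and SFO, against 17.2, 16.3 and 15.1 for light ones. In OFS most of this gap in reads came with nestling 79687, the bird with reads filled in. Without that bird the heavy mean was 16.4 reads, barely above light 79684 (16.3), and heavy 62642 (15.8) was below it. Without 79687 the difference with the natal group as a block was -1.31 points (exact permutation test, two-sided, p = 0.0833, the smallest that 12 arrangements allow). The part of depth in these differences was not tested.

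Mean methylation was lower in libraries with more reads per value. In the birds with reads worked out, a value on fewer than 10 reads had 5 or more methylated reads. Low percentages on few reads are thus absent from their libraries, and the part of this in the relation was not tested. Over the 22 nestlings mean reads per value at the shared sites and mean methylation there had r = -0.588 (permutation p = 0.00478, adjusted p = 0.0119) and rho = -0.728 (permutation p = 0.000200, adjusted p = 0.000500). Without the 2 deepest birds, light 79513 and heavy 79591, r was -0.675 (permutation p = 0.00168). When each nestling was averaged over all its own sites r was -0.883 (permutation p = 1e-05, the smallest that 100000 resamples can give), and -0.918 without the same 2 birds. At the shared sites heavy hatchlings averaged 17.5 ± 3.099 reads and light hatchlings 18.8 ± 5.46 reads (two-sided permutation test, p = 0.476). With these reads taken into account the difference in mean methylation was 0.00318 points, and with the deposited coverage taken into account it was -0.0394 points, against 0.203 points without either.

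**Figure D3:**
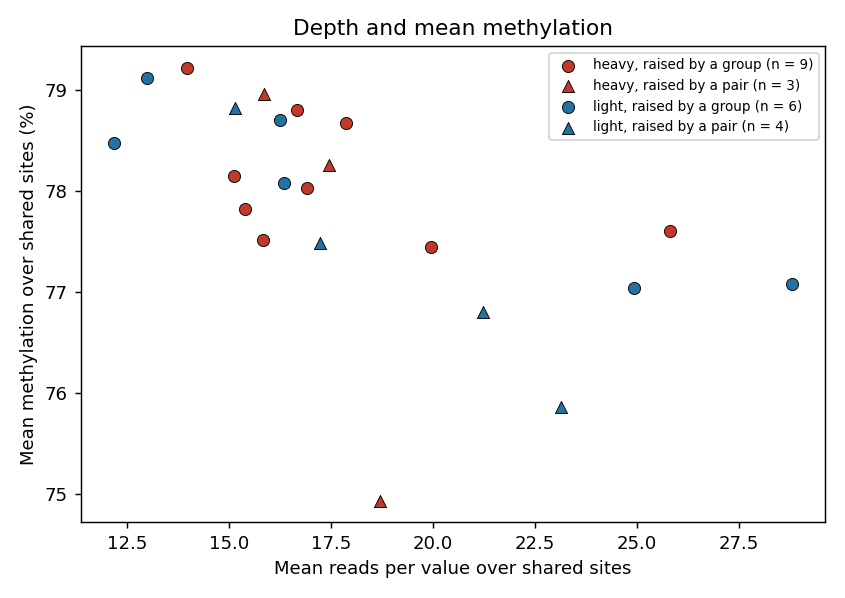
Mean reads per value (horizontal axis) against mean methylation (%, vertical axis, not starting at 0) over the 15593 shared CpG sites, 1 point per nestling, with heavy hatchlings in red, light ones in blue, circles for birds raised by groups and triangles for birds raised by pairs. Deeper libraries had lower means (r = -0.588), in birds of both colours, and heavy nestling 79676 lies below the band of the others.

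Nestlings of 1 class were not detectably more alike than nestlings of different classes. The root mean square difference in percentage over the shared sites was 15.03 points for the 66 pairs of heavy hatchlings, 14.78 points for the 45 pairs of light hatchlings and 14.88 points for the 120 pairs of 1 heavy and 1 light hatchling. The mean between classes minus the mean within classes was -0.0536 points (two-sided permutation test, p = 0.204). The variance among nestlings, averaged over the same sites, was 113 squared points in heavy and 109 squared points in light hatchlings (two-sided permutation test, p = 0.552). The first 2 principal components held only 6.06 and 5.89% of the variance, with component 1 at -0.395 ± 1.76 in heavy and 0.474 ± 3.39 in light hatchlings (two-sided permutation test, p = 0.470). Component 2 averaged 0.156 ± 2.87 in heavy and -0.187 ± 2.27 in light hatchlings (two-sided permutation test, p = 0.788). The highest score on component 1 belonged to the light nestling 79556 (8.20), which had the fewest reads (5266843). On component 2 it belonged to the heavy nestling 79676 (8.59), the bird with the lowest mean methylation.

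No single CpG site passed the test between heavy and light hatchlings. Of the 1302807 sites with a value in at least 60% of each class, 0 (0%) had an adjusted p of at most 0.01 together with a fitted difference of at least 25 points (limma with carer class and age as covariates, Benjamini-Hochberg adjustment). An unadjusted p under 0.05 was found at 62826 sites (4.82%), and one under 0.001 at 1249 sites (0.0959%), against 1303 if no site differed. The smallest adjusted p was 0.107. The inflation factor lambda, the median test statistic over its value when no site differs, was 1.001.

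**Figure D4:**
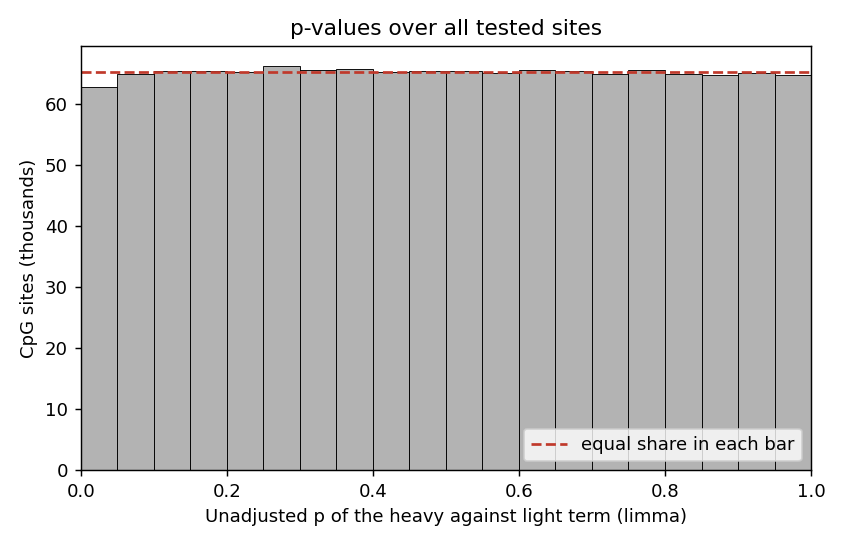
Number of CpG sites (vertical axis, in units of 1000) by unadjusted p of the heavy against light comparison (horizontal axis, bars 0.05 wide) over the 1302807 tested sites. The dashed line is the equal share of 65140 sites per bar, and the first bar, with 62826 sites, lies below it.

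Fitted differences leaned slightly to the heavy side. They were above 0 at 53.0% of the sites, with a median of 0.423 points and a median size of 3.73 points, against a median standard error of 5.44 points. A difference of 25 points or more was fitted at 916 sites (0.0703%), of which 719 were higher and 197 lower in heavy hatchlings. Low percentages on few reads are absent, and the lightest hatchlings had the deepest libraries of their class. The part of this in the lean was not tested. The median site had values from 9 heavy and 8 light hatchlings, and the least that entered was 8 heavy and 6 light. At this depth and number of birds a lone site with the median standard error would have needed a difference of 41.98 points to pass. Smaller fitted differences at such a site would not have passed. Sites with a lower standard error (4.55 points at the lowest 5%) needed less. All heavy hatchlings with a value lay above all light ones at 79 sites (0.00606%), and all below at 40 sites (0.00307%).

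The count of sites depended on the model. On the logit scale limma called 1 site, and quasi-binomial regression on the reads called 0, with 53664 sites (4.15%) at an unadjusted p under 0.05. Of the 1292957 sites that the quasi-binomial regression fitted, 2 had an adjusted p of at most 0.05 (smallest 0.000117). No site passed the limits of 0.01 and 25 points together. Position 42189 of scaffold VYZT01012434.1, described below, had no quasi-binomial result. Beta regression, the family the study used for its carer comparison, called 79 sites (0.00606%) by its Wald test, of which 69 were higher in heavy hatchlings. With that model 10.6% of all sites had an unadjusted p under 0.05 and lambda was 1.33. All 79 sites had an unadjusted limma p under 0.05, and their raw means were 17.4 to 60.9 points apart (median 25.5), with 49 sites at 25 points or more.

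The 5 sites of smallest p higher in heavy hatchlings and the 5 lower in them are described next, and none of these 10 passed the test. At each of them some values rested on fewer than 10 reads, where low percentages are absent. Positions are those of the deposited table on scaffolds of the chestnut-crowned babbler genome. Whether they lie in genes, exons, introns or untranslated regions was not analysed here.

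Highest in rank among sites with more methylation in heavy hatchlings was position 62447 of scaffold VYZT01061406.1, which was methylated in most reads of every heavy bird with a value. The 10 heavy hatchlings with a value had 87.5 to 100% (median 100%), whereas the 8 light ones had 0, 0, 0, 0, 53.8, 54.5, 80 and 92.9%. Means were 96.1 ± 5.32% in heavy and 35.2 ± 39.7% in light hatchlings, and the fitted difference was 63.9 points (SE 9.36, limma adjusted p = 0.107). The 4 light birds at 0% were 62645, 79578, 79556 and 79684, of which the first 2 share natal group CEG. Nestling 79555, from the same natal group NFI as 79556, had 53.8%. The lightest hatchling of all, 62525, had the highest light value, 92.9% from 14 reads. Values at this site rested on 6 to 22 reads. Those of heavy 61511, 62534, 62642, 79523, 79590 and 79619 rested on 6 to 9 reads, where low percentages are absent. All light values rested on 10 to 22 reads. On 10 reads, as in light 79556 and 79684, 0% can appear but other low percentages are absent, by the rule for reads given below. The part of this in the difference was not tested. Of the 13 other tested sites within 1 kb, 8 were also higher in heavy hatchlings, with a median difference of 1.68 points.

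Position 488694 of scaffold VYZT01044832.1 had a like pattern with 1 heavy exception. The 9 heavy hatchlings had 0 to 100% with a median of 90%, and the single 0% was nestling 79685, while the next lowest was 66.7%. The 6 light hatchlings had 0, 0, 0, 45.5, 46.7 and 83.3%. The fitted difference was 56.7 points (SE 10.1, limma adjusted p = 0.827), and the classes overlapped. Values of heavy 61511, 62534, 62605, 79591 and 79619 rested on 7 or 8 reads, where low percentages are absent, and that of 79685 on 12. Light values rested on 11 to 21 reads. The part of this in the difference was not tested.

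At position 177488 of scaffold VYZT01060770.1 the heavy hatchlings stayed high and the light ones were divided. Heavy values ran from 63.6 to 100% (median 81.7%, n = 10), and the 6 light values were 0, 0, 0, 35.7, 85.7 and 88.9%. The fitted difference was 52.3 points (SE 9.68, limma adjusted p = 0.827). Light nestlings 62645 and 79578 were at 0% here as at the first site, and 79555 was at 0% here but at 53.8% there. Values of heavy 61511, 62605, 79523, 79561, 79590, 79619 and 79676 rested on 6 to 9 reads, where low percentages are absent. So did those of light 79563 and 79677, at 85.7 and 88.9%. The light birds at 0% had 10 or 11 reads. On so many reads, by the rule for reads given below, 0% can appear but most other low percentages are absent. The part of this in the difference was not tested.

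The other 2 sites with more methylation in heavy hatchlings had intermediate light values and no bird at 0%. At position 64550 of scaffold VYZT01005349.1 the 8 heavy hatchlings had 83.3 to 100% (median 92.7%) and the 7 light ones 55.6 to 75% (median 66.7%), a fitted difference of 28.4 points (SE 5.21, limma adjusted p = 0.827). At position 15884 of scaffold VYZT01057629.1 the 8 heavy hatchlings had 80 to 100% (median 94.7%) and the 8 light ones 53.8 to 75% (median 69.0%), a fitted difference of 25.9 points (SE 4.80, limma adjusted p = 0.827). The classes did not overlap at either of these sites. Since values at them rested on 5 to 19 reads, 1 read moved a value by several points or more. Several light values at each of them rested on 7 to 9 reads, where a value of 0% could not appear. Values of heavy 62642 and 79676 at position 64550 rested on 6 and 5 reads. At position 15884 those of heavy 62534, 62605, 79523, 79590, 79619 and 79676 rested on 5 to 8 reads, where low percentages are absent. Light values there rested on 7 to 16 reads. On 5 reads, as in heavy 79676 at position 64550 and 62605 and 79523 at 15884, only 100% can appear. The part of this in the differences was not tested.

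**Figure D5:**
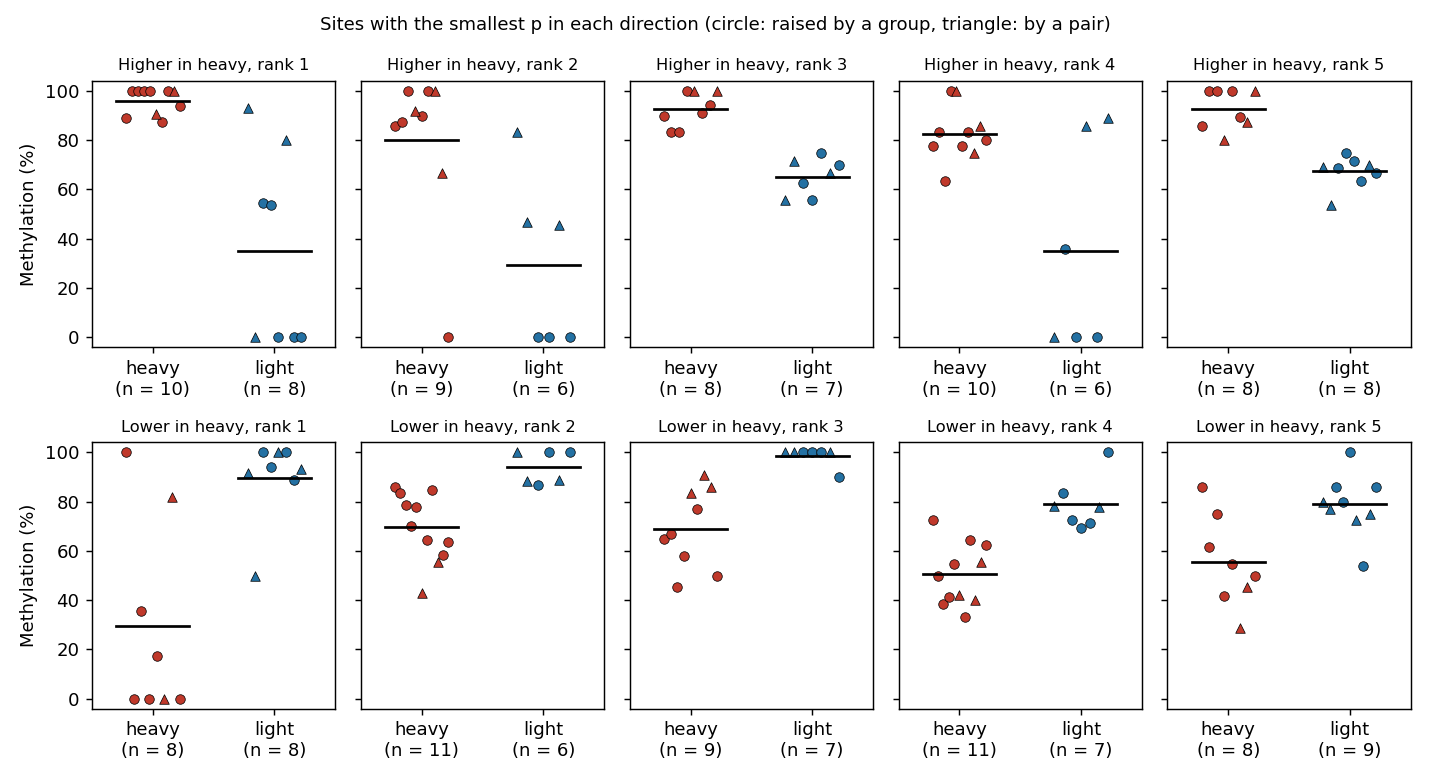
Methylation (%, vertical axes) of each nestling with a value at the 5 sites of smallest p that were higher in heavy hatchlings (top row) and the 5 that were lower (bottom row), with heavy birds in red at the left and light birds in blue at the right of each panel, circles for birds raised by groups and triangles for birds raised by pairs, and lines at the means. The classes are apart at ranks 3 and 5 of the top row and rank 2 of the bottom row, whereas rank 1 of the top row sets heavy birds of 87.5 to 100% against light birds of 0 to 92.9%.

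Among sites with less methylation in heavy hatchlings, position 42189 of scaffold VYZT01012434.1 ranked highest. The 8 heavy hatchlings had 0, 0, 0, 0, 17.4, 35.7, 81.8 and 100%, and the 8 light ones 50, 88.9, 91.7, 93.3, 94.1, 100, 100 and 100%. Means were 29.4 ± 40.3% in heavy and 89.8 ± 16.6% in light hatchlings, and the fitted difference was -58.3 points (SE 8.98, limma adjusted p = 0.184). The heavy birds at 0% were 62642, 79590, 79619 and 79687, of which 62642 and 79687 share natal group OFS. Nestling 79591, of the same natal group BFD as 79590, had 17.4% from 23 reads. Of the 17 other tested sites within 1 kb, 6 were also lower in heavy hatchlings, and their median difference was 1.43 points.

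At position 23695 of scaffold VYZT01048671.1 the classes lay just apart. The 11 heavy hatchlings had 42.9 to 85.7% (median 70%) and the 6 light ones 86.7 to 100% (median 94.4%), a fitted difference of -30.8 points (SE 5.41, limma adjusted p = 0.827). At position 23349 of scaffold VYZT01056121.1 the 9 heavy hatchlings had 45.5 to 90.9% (median 66.7%), whereas 6 of the 7 light ones had 100% and nestling 79684 had 90%. Its fitted difference was -28.2 points (SE 5.40, limma adjusted p = 0.827). All 4 other tested sites within 1 kb of it were also lower in heavy hatchlings, with a median difference of -8.17 points. Values of light 62525, 79578, 79677 and 79684 at position 23695 rested on 5 to 9 reads, where low percentages are absent. So did those of heavy 61511, 62534, 79523 and 79676, at 6 to 9 reads. At position 23349 light 62525, 62645, 79555, 79556 and 79677 had 5 to 9 reads, and heavy 62605 and 79676 had 9 and 7. On 5 reads, as in light 79578 at position 23695 and 62525 at 23349, only 100% can appear. The part of this in the differences was not tested.

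The remaining 2 were of intermediate methylation. At position 59242 of scaffold VYZT01036629.1 the 11 heavy hatchlings had 33.3 to 72.7% (median 50%) and the 7 light ones 69.2 to 100% (median 77.8%), a fitted difference of -29.1 points (SE 5.76, limma adjusted p = 0.827). At position 142257 of scaffold VYZT01009690.1 the 8 heavy hatchlings had 28.6 to 85.7% (median 52.3%) and the 9 light ones 53.8 to 100% (median 80%), a fitted difference of -29.0 points (SE 5.71, limma adjusted p = 0.827). The classes overlapped at both sites.

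With hatching mass in grams in place of the classes, 2 of the 1302807 tested sites passed. Both had a limma adjusted p of at most 0.01, and they are named here after their values had been seen. The fitted effect is a slope in points per g, and the class means lay only 0.394 g apart. A limit on its size is therefore not the same as that on a difference between classes. In the fit by mass 5.71% of sites had an unadjusted limma p under 0.05 and lambda was 1.066, against 4.82% and 1.001 with the classes. At position 258528 of scaffold VYZT01002030.1 methylation was 100% in the heavy birds 79685 (3.4 g) and 62605 (3.22 g), against 0% in the light bird 62525 (2.28 g), 31.8% in 79578 (2.6 g) and 27.8% in 79513 (2.7 g). Not every bird followed this order, with 75% in light 62645 (2.77 g), 80% in light 79555 (2.9 g) and 41.2% in heavy 79687 (3.0 g). The remaining birds with a value lay between 50 and 88.9%. The fitted slope was 92.9 points per g (limma adjusted p = 0.00290), while the 2 classes, at 78.0 ± 18.9% in 9 heavy and 48.0 ± 29.7% in 7 light hatchlings, did not pass (limma adjusted p = 0.999). At position 7283 of scaffold VYZT01031138.1 the slope was 116 points per g (limma adjusted p = 0.00173). There the 8 heavy hatchlings lay between 70 and 90%, and the 6 light ones between 0% (79513) and 100% (79563), with 37.5% in 62525. Values of 79513 and 62525 rested on 16 reads each, and those of the heavy hatchlings on 8 to 20 reads. These birds ran from 2.28 to 3.4 g, a range over which a line of that slope leaves the scale of 0 to 100%. Neither slope was refitted without the lightest hatchling.

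No window of neighbouring sites passed the test either. Windows of 1 kb with at least 3 tested sites numbered 106470, and 0 (0%) had an adjusted p of at most 0.05 (limma, carer class and age as covariates). An unadjusted p under 0.05 was found in 4920 windows (4.62%), and the smallest adjusted p was 0.112. The median standard error of a window was 2.52 points, against 5.44 points for a single site. A fitted difference of 10 points or more was found in 400 of the 106470 windows. In the windows a nestling's value is the mean over sites of its deviation from the site's mean, in percentage points.

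The window with the smallest p lay between positions 37001 and 38000 of scaffold VYZT01060757.1 and held 5 sites, all higher in heavy hatchlings. Methylation there averaged 93.8% in heavy and 81.7% in light hatchlings. Deviations ran from -0.493 to 12.3 points in 11 heavy birds and from -14.6 to 0.458 points in 9 light birds, so that only heavy nestling 79685 and light nestling 79563 overlapped. The fitted difference was 12.9 points (SE 2.001, limma adjusted p = 0.112).

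At 4 sites between positions 46001 and 47000 of scaffold VYZT01040130.1 methylation averaged 87.5% in heavy and 74.5% in light hatchlings, a fitted difference of 16.2 points (SE 2.56, limma adjusted p = 0.152). At 3 sites between positions 2001 and 3000 of scaffold VYZT01011794.1 it averaged 89.3% in heavy and 76.8% in light hatchlings, a fitted difference of 15.9 points (SE 2.70, limma adjusted p = 0.377). In this last window the deviations of the 9 heavy birds (0.0552 to 11.5 points) did not overlap with those of the 6 light birds (-18.8 to -1.60 points).

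Windows lower in heavy hatchlings had larger p. The first, with 4 sites between positions 1 and 1000 of scaffold VYZT01085760.1, averaged 73.8% in heavy and 84.3% in light hatchlings, a fitted difference of -14.4 points (SE 3.05, limma adjusted p = 0.784). The second, with 10 sites between positions 215001 and 216000 of scaffold VYZT01016051.1, had values from all 22 nestlings and averaged 75.9% in heavy and 86.5% in light hatchlings (fitted difference -12.2 points, SE 2.802, limma adjusted p = 1). In it 9 of the 10 sites were lower in heavy hatchlings, yet the heavy nestlings 61511, 79685 and 79561 (4.31 to 8.05 points) lay among the light ones. The third, with 3 sites between positions 4001 and 5000 of scaffold VYZT01052226.1, averaged 78.0% in heavy and 88.3% in light hatchlings, a fitted difference of -14.4 points (SE 3.14, limma adjusted p = 1). In all 3 the deviations of the classes overlapped.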

How the data were processed

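Each of the 28 nestlings was 1 library of enzymatic methyl sequencing. After trimming with HTStream the authors aligned reads to the genome of the species with Bismark, merged both strands, and retained sites by coverage (10 or more), by presence in 60% of nestlings in both carer classes and by variation. Deposited percentages (methylated reads per 100 reads) were taken as given, without normalization across birds. Deposited read counts were filled in for 1 nestling. In the other 27, coverage was not the denominator of the percentage, and all values resolved into whole reads (tolerance 1e-06 points) if coverage was 2 times the methylated plus the unmethylated reads, each term counted from 10 upwards. No value then rested on fewer than 5 reads. By this rule a value on fewer than 10 reads in these 27 birds had at least 5 methylated reads, so low percentages on few reads are absent. A value on exactly 10 reads had either no methylated reads or at least 5. In the bird with reads filled in, 79687, coverage equalled the reads on average, so its values follow another limit. The growth rate and these reads are interpretations of the columns. A further 4 columns of values were not used.

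Nestlings with a hatching mass were classed at 3.0 g. Sites with a value in 60% of each class were fitted on the percentage by class, carer class and age, with variances moderated over all sites by limma 3.58.1 (R 4.3.3). Fits were checked against limma's own at 20000 sites (largest gap 1.3e-12 points) and, for beta regression, against glmmTMB 1.1.9 (200 of 200 sites within 0.01), and tested on simulated data. Single values were compared with two-sided permutation tests, exact where a class had under 10 birds and otherwise of 100000 resamples. Besides this fit, 40 settings of the site test were run, 17 planned and 23 added after seeing the data, as were 4 of mean methylation. Named sites are the 5 of smallest p in each direction and named windows the 3 of smallest p, chosen without regard to passing. The limits, tests and rule were chosen with earlier results of these data known. Intervals and p-values measure the spread between nestlings, some of which share a natal group. Brood and cross-fostering status were not used, and gene annotation was not analysed here. Scripts ran in Python 3.11.15 (numba 0.67.0, numpy 2.4.6, scipy 1.17.1).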

Additional observations from a re-analysis of the deposited data

Results flagged for a closer look

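Of 28 sets of 4 to 10 values examined, 4 held a bird set apart from the others of its class by a gap rule. The rule is made to flag about 1 in 20 sets of unbounded values. Most sets here were percentages at sites chosen for small p, so the count cannot be held against that rate. The hatching mass of light nestling 62525, 2.28 g, lay well below the next light mass, 2.6 g. Heavy nestling 79685 had 0% at position 488694 of scaffold VYZT01044832.1, where the next lowest heavy value was 66.7%. Light nestling 62645 had 50% at position 42189 of scaffold VYZT01012434.1, where the next lowest light value was 88.9%. Light nestling 79684 had 90%, from 10 reads, at position 23349 of scaffold VYZT01056121.1, where the other 6 light values were 100%. With those tied at 100%, any lower value would have been flagged. Causes were not tested.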

How the results depend on the processing

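The site test called 0 sites, 1 with logit values (position 62447 of scaffold VYZT01061406.1, adjusted p = 0.000412), 1 with a value in 80% of each class (the same site, adjusted p = 0.00756), 2 with mass in grams and 79 with beta regression. Leaving out 1 nestling gave 0 to 1 sites, the 1 being that site again without light nestling 62525 (adjusted p = 0.00242, and 0.00242 to 0.371 over the 22 nestlings left out). The other alternatives of the site test and the 4 of the window test called 0. At position 62447 the limma adjusted p was 0.0260 among birds raised by groups and 0.0653 with depth as covariate. It was 0.754 with 1 nestling per natal group and class and 0.955 without nestlings of 2.9 to 3.1 g. In quasi-binomial regression on the reads the adjusted p at that site was 0.972. The difference in mean methylation, 0.203 points, was -0.0394 after depth, -0.167 without nestlings of 2.9 to 3.1 g (p = 0.838, exact permutation test) and -0.00619 (without light 62525) to 0.478 (without heavy 79676) with 1 nestling left out, and no alternative took it past the threshold. With the natal group as a block it was -1.34 points (p = 0.0625) and without heavy 79687 -1.31 points (p = 0.0833), both exact permutation tests at the smallest p possible. It was -0.0835 points at sites above 90%, against 0.0316 above 80%, and 1.84 points at sites below 10% (adjusted p = 0.172), against 0.640 below 20%. The correlation of hatching mass with mean methylation was -0.200 after age, carer class and depth, against 0.121. The difference in mass at sampling was -0.262 g after age, against 0.287 g. At the 10 named sites 84 alternatives were computed, of which 75 kept direction and side of the threshold, 9 passed it (8 with beta regression, 1 with a value in 80% of each class) and 0 reversed. Why the values differ between settings was not tested. With about 10 reads per value and 22 nestlings, differences under 41.98 points at a lone typical site were not detectable. In the site test the natal group as a block (correlation 0.0359) called 0 sites.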
